A study of Mus musculus with 4 samples.

Results

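Hair shaft and inner root sheath genes are the structural genes of a growing hair and their regulators. The set was chosen by gene name from a list of 34 genes, of which 33 had a row among the 56953 genes counted, and Krt85 was not analysed here. It holds 7 keratins of the inner root sheath, 11 analysed keratins of the hair shaft, trichohyalin and 3 related genes, 5 transcription factors and 6 other follicle proteins. RNA came from dorsal skin, labelled full-thickness, of wild type C57BL/6J mice after topical treatment for 3 days. The DMSO group, the solvent control, had 2 libraries, and the NEDD8i group (10 µM), whose agent is named in the labels by that short form alone, had 2. No sex, age or hair cycle stage is given. Nothing in the labels ties a library to a mouse, so the spread behind each p-value may be technical rather than between animals. The extraction text speaks of cells, so which layers of the skin gave the RNA is uncertain.

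A hair grows from matrix cells at the base of the follicle during anagen, the growth phase of the hair cycle, and follicles at rest hardly make these proteins. Matrix cells form the shaft (medulla, cortex and cuticle), built from hair keratins that are filled and crosslinked by keratin-associated proteins. They also form the inner root sheath around it, which has keratins of its own and hardens with trichohyalin. In both keratin families a type I protein pairs with a type II protein. In human follicles K35 and K85 are known to come first, low in the bulb, and K31, K33, K34 and K81 follow higher up in the cortex.

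Total counts ran from 5639791 to 8856572 per library, and 52.6% to 61.7% of them lay on 3 ribosomal RNA genes, lowest in DMSO replicate 1. Levels below are in RPM, reads of a gene per 1000000 reads outside those 3 genes, of which each library had 2287839 to 3654442, and a floor of 3 reads stands for 0.821 to 1.31 RPM. The libraries read transcript ends, so counts were not divided by transcript length, and levels are compared between libraries, not between genes. The 8 dermal fibroblast genes took only 0.00254% to 0.0184% of reads outside ribosomal RNA, although the label is full-thickness skin. The 8 interfollicular keratinocyte genes, which check the epidermal part of the labelled tissue alone, had reads in every library. They took 1.48% and 2.77% of reads outside ribosomal RNA in DMSO and 1.73% and 1.65% after NEDD8i, lowest in DMSO replicate 1. Of these Krt10, a keratin of the upper epidermal layers, had 18922, 24231, 19328 and 16965 counts, and 1 was called lower, Lor, the envelope protein loricrin, with 2377, 613, 199 and 247 (edgeR adjusted p = 0.0377).

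The promoters of 4 members are shown because the root sheath keratins, shaft keratins and trichohyalin were high and low in the same libraries. Each line gives the 250 bases before the transcript start, from RefSeq on GRCm38.p6, 5′ to 3′ on the gene's strand. Capitals mark matches to 4 words, each searched on both strands. The word TATAAA is that of the TATA box, but it was counted anywhere in the 250 bases, so a match need not be a working box. The word CTTTGA is the core recognised by LEF1, a factor of the hair matrix. The words TTTATNA and, on its own, TTAATNA resemble sites of HOXC13. A match to TTTATNA can overlap one to TATAAA.
Krt25, chr11:99322952-99323201, minus strand: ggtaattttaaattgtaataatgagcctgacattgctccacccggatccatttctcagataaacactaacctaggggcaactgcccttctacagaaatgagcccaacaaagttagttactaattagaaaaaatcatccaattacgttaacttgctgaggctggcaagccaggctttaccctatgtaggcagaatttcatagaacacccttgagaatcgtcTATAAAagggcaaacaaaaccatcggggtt
Krt71, chr15:101743098-101743347, minus strand: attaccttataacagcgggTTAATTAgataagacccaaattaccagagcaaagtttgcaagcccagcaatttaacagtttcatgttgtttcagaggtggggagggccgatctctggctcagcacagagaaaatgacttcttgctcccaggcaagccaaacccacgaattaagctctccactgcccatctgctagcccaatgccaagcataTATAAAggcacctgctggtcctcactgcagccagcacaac
Krt33b, chr11:100029869-100030118, minus strand: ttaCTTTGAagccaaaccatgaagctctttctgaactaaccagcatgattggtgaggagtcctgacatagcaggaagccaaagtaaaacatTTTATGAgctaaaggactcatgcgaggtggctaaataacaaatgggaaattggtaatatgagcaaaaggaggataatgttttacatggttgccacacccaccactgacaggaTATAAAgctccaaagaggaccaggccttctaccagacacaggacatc
Tchh, chr3:93442080-93442329, plus strand: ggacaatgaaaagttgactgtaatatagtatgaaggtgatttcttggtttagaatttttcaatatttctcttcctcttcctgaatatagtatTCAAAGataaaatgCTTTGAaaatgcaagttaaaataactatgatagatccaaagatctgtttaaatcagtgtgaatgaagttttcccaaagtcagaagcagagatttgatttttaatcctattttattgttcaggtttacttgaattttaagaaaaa
Of the 33 members, 24 had a RefSeq promoter. TATAAA stood in the 250 bases of 15 of these 24, in 7 of 7 root sheath keratins and in 5 of 7 shaft keratins, against 12.4% of all 32851 promoters. In Krt25 it began 30 bases before the start, in Krt71 40 and in Krt33b 47. CTTTGA stood in 1 of 7 root sheath and 4 of 7 shaft keratins (13.8% of all promoters). TTTATNA stood in 1 of 7 and 5 of 7 in the same order (12.8% of all), and, where matches overlapping TATAAA were left out, in 1 and 4 (9.97% of all). TTAATNA stood in 2 of 7 and 1 of 7 (9.91% of all). Such a match is a run of letters, and none of these libraries measured binding.

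Most members were higher in 1 library of each group than in the other. At most 5 reads in both DMSO replicate 2 and NEDD8i replicate 1 were seen for 20 of 33. Among these 20, Krt36, Krt82, Krt84 and Gprc5d also had only 3 or 4 reads in NEDD8i replicate 2. By contrast, 6 members had at least 20 reads in every library, Krt32, Tchh, Hoxc13, Foxq1, Foxn1 and Gsdma. Summed, the members had 60153, 468, 574 and 4892 counts in DMSO replicates 1 and 2 and NEDD8i replicates 1 and 2. As shares of all non-ribosomal reads these were 2.13% (2.11 to 2.15, exact 95% binomial interval) in DMSO replicate 1, 0.0205% in DMSO replicate 2 (0.0186 to 0.0224), 0.0157% in NEDD8i replicate 1 (0.0144 to 0.017) and 0.145% in NEDD8i replicate 2 (0.141 to 0.149). All 32 members with any read were highest in DMSO replicate 1, and in 28 of them NEDD8i replicate 2 came next. Among tested genes this order held for 23 of 26 members, against 8.55% of all 11388. That order was read off the members themselves, so the contrast is descriptive only. The sum was 104-fold higher in DMSO replicate 1 than in replicate 2 (95% counting interval 95.1 to 114), and 9.21-fold higher in NEDD8i replicate 2 than in replicate 1 (8.45 to 10.1). The 2 treatment groups therefore overlapped. Fewer follicle cells and less RNA per cell cannot be told apart in bulk samples. Intervals cover counting error only, since each library is a single sample.

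**Figure D1:**
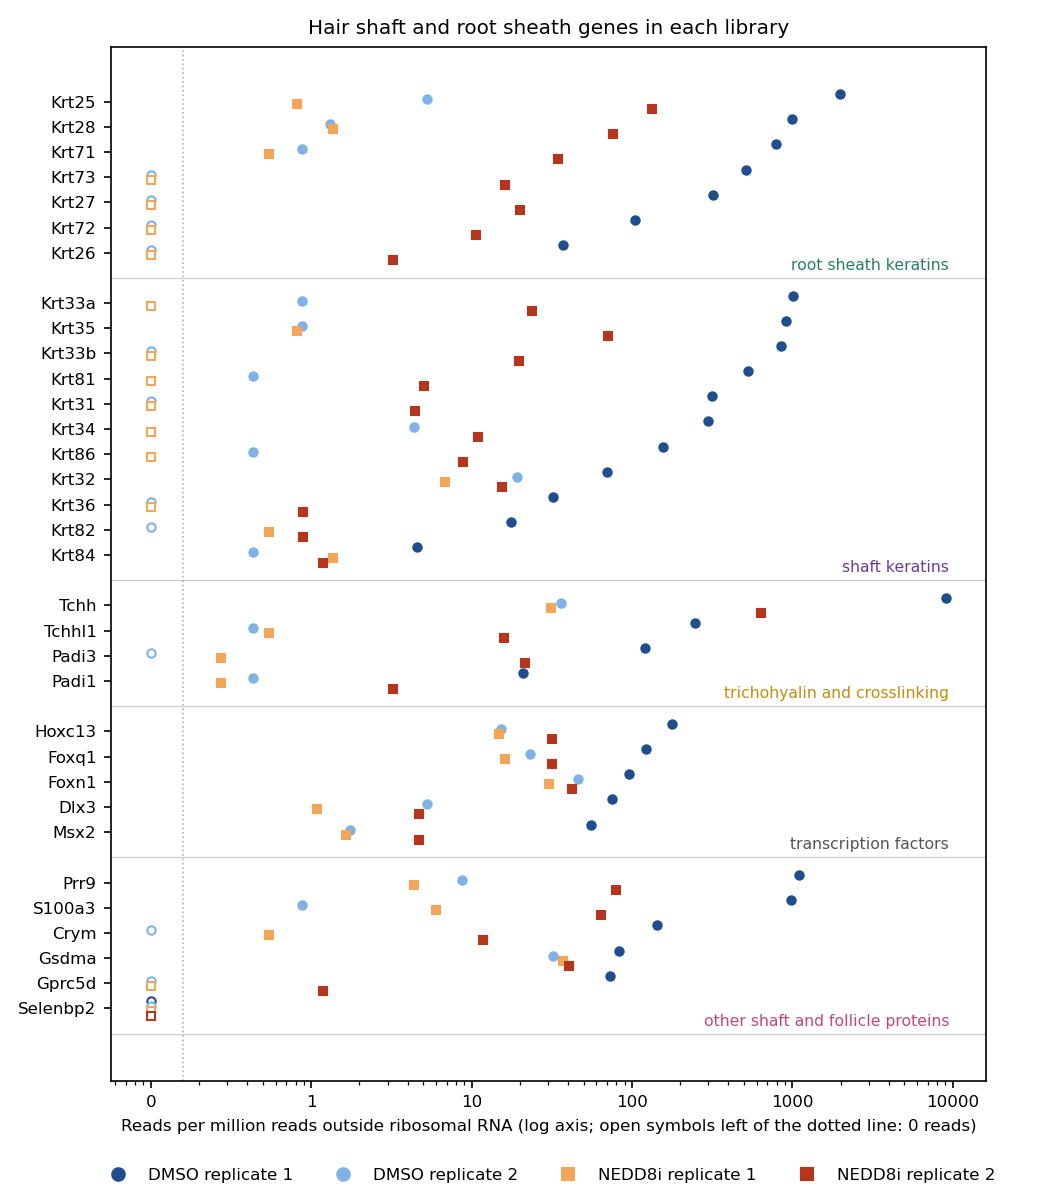
RPM (log axis) for each of the 33 members in the 4 libraries, with 0 reads drawn as open symbols left of the dotted line. DMSO replicate 1 lies farthest right in all 32 members with reads, and NEDD8i replicate 2 comes next in 28, while DMSO replicate 2 and NEDD8i replicate 1 lie near 0 for most keratins.

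In the inner root sheath, all 7 keratins showed the pattern in full. Krt25, a type I keratin (ENSMUSG00000035831.3, chromosome 11, 99206342 to 99213777, minus strand, in what is taken to be GRCm39), stood at 1987 and 5.25 RPM in DMSO replicates 1 and 2 and at 0.821 and 132.5 in NEDD8i replicates 1 and 2. Its counts were 5612, 12, 3 and 448. DMSO replicate 1 and NEDD8i replicate 2 were thus high and the other libraries low, so the groups overlapped. Krt28, in the same row of genes, had 990.3, 1.31, 1.37 and 75.7 RPM in the same order, and Krt27 had 322.2, 0, 0 and 20.1. Their counts were 2797, 3, 5 and 256 for Krt28 and 910, 0, 0 and 68 for Krt27. Krt26, the remaining type I gene of this row on chromosome 11, had 105, 0, 0 and 11 counts. The type II partners lie on chromosome 15. Krt71 (101642384 to 101651544) had 787.1, 0.874, 0.547 and 34.6 RPM, from 2223, 2, 2 and 117 counts. Krt73 had 1458, 0, 0 and 55 counts, and Krt72 295, 0, 0 and 36. For 4 of the 7 genes the low library of each group had no read at all. Against a floor of 3 reads in DMSO replicate 2, Krt73 was at least 394-fold and Krt27 at least 246-fold higher in DMSO replicate 1. Krt28 was 755-fold higher there, on 3 reads in DMSO replicate 2 (95% counting interval 258 to 3664).

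Hair shaft keratins followed the same order with 2 exceptions, Krt32 and Krt84. In the cortex genes the counts in DMSO replicate 1 were 2853 for Krt33a, 2415 for Krt33b, 890 for Krt31 and 839 for Krt34, all type I and side by side on chromosome 11. In DMSO replicate 2 they were 2, 0, 0 and 10, in NEDD8i replicate 1 all 4 had 0, and in NEDD8i replicate 2 they were 81, 67, 15 and 37. Krt35, the type I keratin of the early shaft (chromosome 11, 99983019 to 99987051), had 910.7, 0.874, 0.821 and 70.7 RPM, from 2572, 2, 3 and 239 counts. Of the type II shaft keratins, Krt81 (chromosome 15, 101356942 to 101361632) had 529.7, 0.437, 0 and 5.03 RPM (1496, 1, 0 and 17 counts), and Krt86 had 440, 1, 0 and 30 counts. Krt36 had 91, 0, 0 and 3 counts and Krt82, a cuticle keratin, 50, 0, 2 and 3. Krt84 stayed under 20 counts everywhere, at 13, 1, 5 and 4. All 11 were highest in DMSO replicate 1. Krt32, a cuticle keratin, was the most even, with 69.8, 19.2, 6.84 and 15.4 RPM, from 197, 44, 25 and 52 counts. It was 3.63-fold higher in DMSO replicate 1 than in replicate 2 (95% counting interval 2.6 to 5.15), where Krt35 was 1042-fold higher on 2 reads in DMSO replicate 2 (288 to 8607). A gene model on the opposite strand overlaps Krt32 and had 72, 0, 0 and 4 counts. The sources used here do not say whether counting used strand, so reads of the pair cannot be told apart.

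Reads split differently between sheath and shaft in the 2 libraries that held most of them. Root sheath keratins took 53.1% of sheath plus shaft keratin reads in DMSO replicate 1 (exact 95% binomial interval 52.4 to 53.7, of 25256 reads) and 64.4% in NEDD8i replicate 2 (61.9 to 66.8, of 1539). The intervals do not overlap. Of the few such reads in DMSO replicate 2 and NEDD8i replicate 1, 78 and 45, they took 21.8% and 22.2%, but Krt32 alone made up 44 and 25 of these reads. Without Krt32, a choice made after seeing the data, the shares were 53.5%, 50%, 50% and 66.6% in library order, with an interval of 32.4 to 67.6 in DMSO replicate 2 and 27.2 to 72.8 in NEDD8i replicate 1. Adding Tchh to the root sheath side gave 76.7%, 62.1%, 78.1% and 85.2%. Leaving out the close copies Krt33a, Krt33b, Krt81 and Krt86 ended the difference between the 2 libraries, at 74.2% in DMSO replicate 1 (73.6 to 74.9) and 73.7% in NEDD8i replicate 2 (71.3 to 76.1), so it was not seen in the other keratins as a group; no gene was left out singly. Within the root sheath, the type II keratins took 29.7% of reads in DMSO replicate 1 (28.9 to 30.5) and 21% in NEDD8i replicate 2 (18.5 to 23.7).

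Single keratins show where the shares parted. Levels in NEDD8i replicate 2 were set against those in DMSO replicate 1, each in RPM, and the members together reached 6.8% (95% counting interval 6.6 to 7). Root sheath keratins reached 6.18% summed (5.79 to 6.59) and 3.15% to 10.2% singly, from Krt73 to Krt72. Shaft keratins reached 3.86% summed (3.54 to 4.21). The intervals of 5 genes lay below that of the summed root sheath keratins: Krt81 at 0.95% (0.552 to 1.53), Krt31 at 1.41% (0.785 to 2.34), Krt33b at 2.32% (1.79 to 2.96), Krt33a at 2.37% (1.88 to 2.96) and Krt34 at 3.69% (2.58 to 5.12). Krt35 lay above it, at 7.76% (6.77 to 8.87), as did Krt32 at 22.1% (15.9 to 30.1). The other 4 shaft keratins overlapped it: Krt86 at 5.7% (3.8 to 8.25), Krt36 at 2.75% (0.558 to 8.31), Krt82 at 5.01% (1 to 15.5) and Krt84 at 25.7% (6.11 to 83.2). Root sheath keratins also parted from their own sum. Krt73 at 3.15% (2.36 to 4.13) and Krt71 at 4.4% (3.62 to 5.3) lay below it. Krt28 at 7.65% (6.7 to 8.7) and Krt72 at 10.2% (7.01 to 14.4) lay above it. Krt35 accordingly took 21.7% of shaft keratin reads in DMSO replicate 1 (21 to 22.4) and 43.6% in NEDD8i replicate 2 (39.4 to 47.9). In NEDD8i replicate 2, Krt31, Krt33a, Krt33b, Krt34 and Krt81 were thus fewer relative to Krt35 and to the summed root sheath keratins. These 5 were picked by their low values, and Krt86 showed no such difference, its interval overlapping both. Each side of this difference is 1 library, of different treatments, so treatment and library cannot be told apart.

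**Figure D2:**
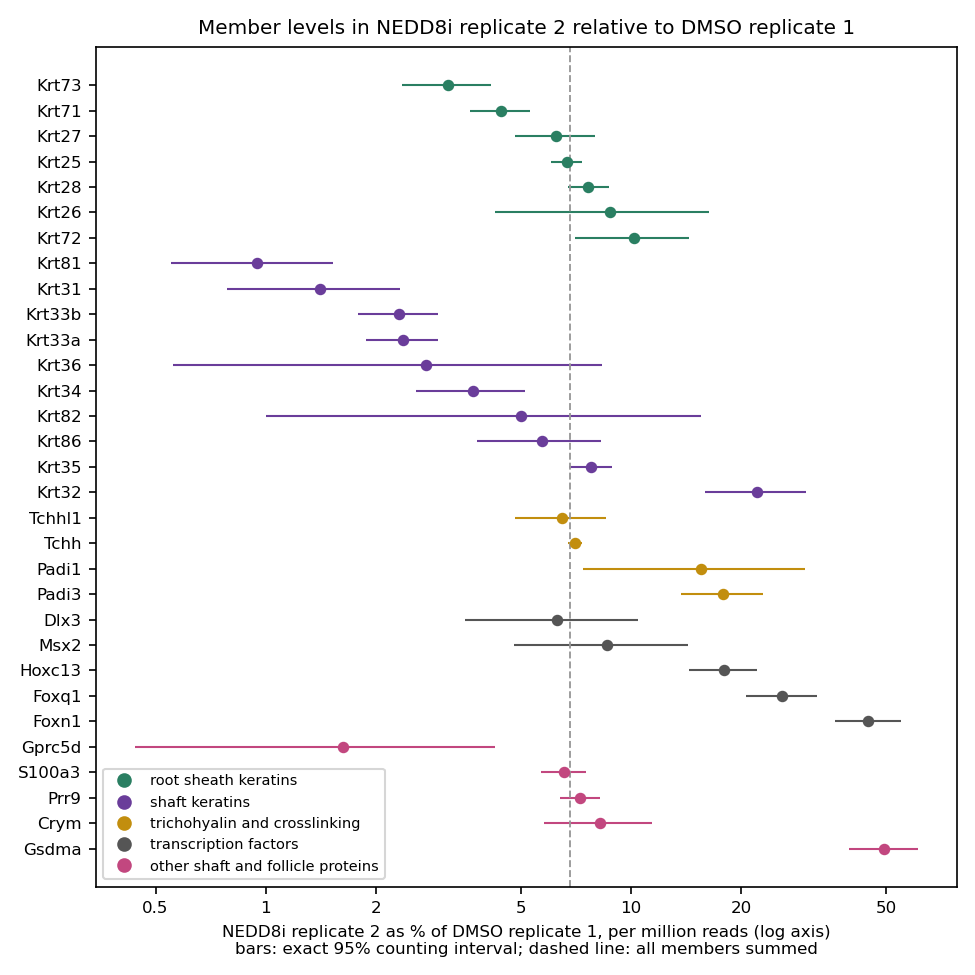
Level of each member in NEDD8i replicate 2 as a percentage of its level in DMSO replicate 1 (log axis), with exact 95% counting intervals, for members with at least 20 counts in DMSO replicate 1. The dashed line marks all members summed (6.8%), with Krt81 at 0.95% and Krt31 at 1.41% far to its left and Foxn1 at 44.6% and Gsdma at 49.1% far to its right.

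Trichohyalin, Tchh, the granule protein that stiffens the inner root sheath and medulla (ENSMUSG00000052415.6, chromosome 3, 93349637 to 93356384, plus strand), had 9070.2, 36.3, 31.5 and 638.5 RPM. It took 42.6% of member reads in DMSO replicate 1 (42.2 to 43) and 44.1% in NEDD8i replicate 2 (42.7 to 45.5), so its share was nearly the same in both. Its counts were 25617, 83, 115 and 2158, and it was 20.3-fold higher in NEDD8i replicate 2 than in replicate 1 (95% counting interval 16.8 to 24.7). Its neighbour Tchhl1, a related protein gene, had 697, 1, 2 and 54 counts. Padi3, a peptidylarginine deiminase that modifies trichohyalin, had 342, 0, 1 and 73 counts, and Padi1, another such enzyme, 59, 1, 1 and 11. NEDD8i replicate 2 held 17.8% of the DMSO replicate 1 level of Padi3 (95% counting interval 13.7 to 23), above the 7.04% of Tchh (6.73 to 7.36).

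As a group, the transcription factors differed least between libraries. Foxn1, the nude gene, which drives keratinocyte differentiation in follicle and epidermis (chromosome 11, 78248403 to 78277384), had 95.6, 45.9, 30.4 and 42.6 RPM (270, 105, 111 and 144 counts), and both NEDD8i libraries lay below both DMSO libraries. Hoxc13, a homeobox regulator of hair keratin genes, had 178.1, 15.3, 14.8 and 32 RPM, and Foxq1, known from the satin coat mutant, 122.2, 23.2, 16.1 and 31.7. Their counts were 503, 35, 54 and 108 for Hoxc13 and 345, 53, 59 and 107 for Foxq1. Both peaked in DMSO replicate 1, and NEDD8i replicate 2 followed, above NEDD8i replicate 1 by 2.16-fold (95% counting interval 1.55 to 3.06) for Hoxc13 and 1.96-fold (1.41 to 2.74) for Foxq1. Dlx3 and Msx2, homeobox regulators of matrix cells, had 213, 12, 4 and 16 counts and 156, 4, 6 and 16 counts. Summed, the 5 factors were 5.76-fold higher in DMSO replicate 1 than in replicate 2 (95% counting interval 4.98 to 6.69) and 1.81-fold higher in NEDD8i replicate 2 than in replicate 1 (1.53 to 2.13). The same steps were 639-fold (399 to 1096) and 107-fold (58 to 224) for the root sheath keratins.

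Of the remaining proteins, S100a3, a calcium-binding protein of the hair cuticle, had 975.1, 0.874, 6.02 and 63.9 RPM, and Prr9, a proline-rich protein gene, 1097, 8.74, 4.38 and 79.6. Their counts were 2754, 2, 22 and 216 for S100a3 and 3097, 20, 16 and 269 for Prr9. Crym, the thyroid hormone-binding crystallin mu, had 406, 0, 2 and 40 counts. Gprc5d, a receptor of the shaft, had 205, 0, 0 and 4. Gsdma, a gasdermin of follicle and epidermis, was nearly even outside DMSO replicate 1, with 82.5, 32.3, 37.2 and 40.5 RPM (233, 74, 136 and 137 counts). Selenbp2 had 0 counts in every library, which allows up to 1.31 RPM in DMSO replicate 2, the shallowest. In GENCODE M21 transcripts, 51.8% of the stretches of 50 bases in the last 300 bases of Selenbp2 also occur in Selenbp1, so its count is uncertain. For S100a3 this share was 18.3%, with an overlapping gene model that had 0 counts. None of the 18 keratins shared such a stretch with another gene, close copies such as Krt33a and Krt33b included.

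Against this spread, no member passed the test of NEDD8i against DMSO. Of the 33 members, 26 passed the filter on low counts and were tested, 0 were called higher and 0 lower at an edgeR adjusted p of 0.05, where 0.782% of all 11388 tested genes were called (0.667% higher and 0.114% lower). At an unadjusted p of 0.05 there were 2 lower, Krt32 and Foxn1, and 0 higher, against 7.86% and 8.62% of all tested genes. DESeq2 called 1 member lower, Krt32 (DESeq2 adjusted p = 0.0422), where it called 3.64% of all genes (2.07% higher and 1.57% lower). limma-voom called 0 members and 0.237% of all genes (0.22% higher and 0.0176% lower). With no filter on low counts, edgeR called 3 of 32 members lower, Krt32, Krt82 and Foxq1, and 2.97% of all genes (1.63% higher and 1.35% lower). The 26 log2 fold changes were all negative, with a median of -3.74 against -0.00 over all tested genes. Their median standard error (SE), worked back from the F statistic of the same test, was 3.32, against 0.42 over all tested genes. Tchh stood at 4553 ± 6388 RPM in DMSO and 335 ± 429.2 after NEDD8i (mean ± SD, n = 2 libraries each), which edgeR fitted as -3.75 on the log2 scale with an SE of 3.63 (adjusted p = 0.724). For Krt25 edgeR gave -3.89 with an SE of 4.11 (adjusted p = 0.745). Krt32, at 44.5 ± 35.7 against 11.1 ± 6.04 RPM (mean ± SD, n = 2 each), was fitted by edgeR at -1.95 with an SE of 0.61 (adjusted p = 0.168). Foxn1 was at -0.89 with an SE of 0.39 (edgeR, adjusted p = 0.299). The SE of Krt25 and Tchh was thus about as large as the log2 fold change itself, and that of Krt32 and Foxn1 well under it. Since each SE was worked back from F, this restates the test and is no separate measure of spread. Both NEDD8i libraries lay below both DMSO libraries in 3 tested members, Krt32, Dlx3 and Foxn1, and above them in 0, against 25.4% and 21.6% of all tested genes.

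By subgroup, 0 of 6 tested root sheath keratins were called, with a median log2 fold change of -3.94, and 0 of 8 tested shaft keratins, with a median of -5.07. These medians turned positive without DMSO replicate 1, to 5.90 and 3.44. In that fit 15 of 26 tested members were called higher and 0 lower (10.4% of all genes were called, 5.62% higher and 4.81% lower). The called genes included all 6 tested root sheath keratins and 3 of 8 shaft keratins, Krt33a, Krt33b and Krt35. Without DMSO replicate 2, 30 of 32 members were called lower and 0 higher (10.7% of all genes, 5.61% lower and 5.09% higher). With NEDD8i replicate 1 left out 0 of 32 were called, and likewise 0 of 32 with NEDD8i replicate 2 left out. In the first of these fits 0.368% of all genes were called (0.343% higher and 0.0251% lower), and in the other 0.387% (0.353% higher and 0.0336% lower). A fit with 1 library left in a group measures no spread in it, so these calls show which library sets the direction and are no findings of their own.

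**Figure D3:**
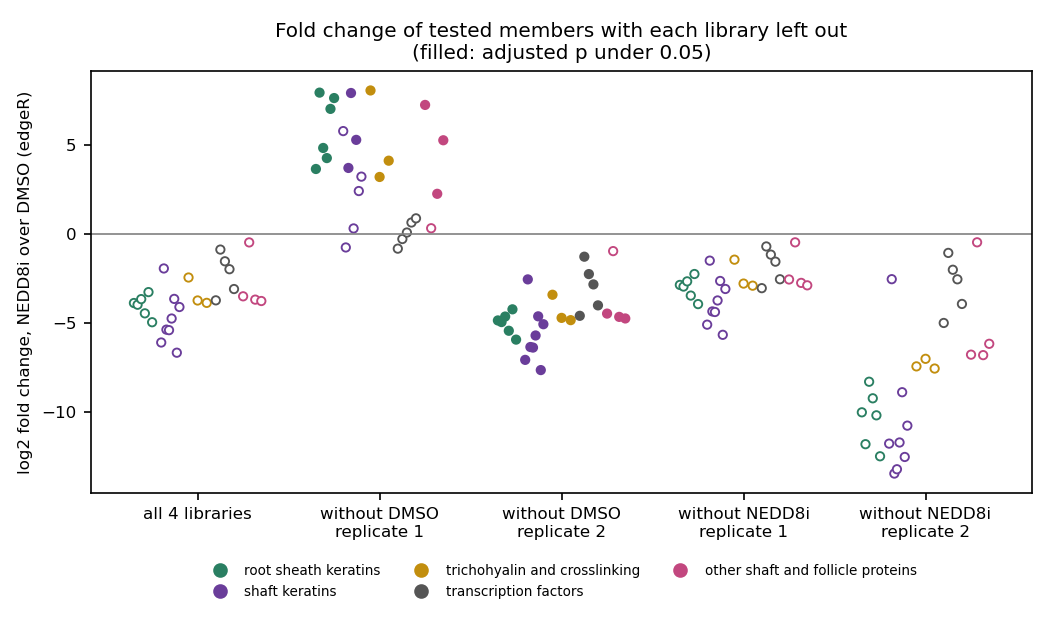
Log2 fold change of NEDD8i over DMSO from edgeR for each tested member, with all 4 libraries and with each library left out in turn; filled points have an adjusted p under 0.05. All 26 points are below 0 and open with all libraries, and 23 of them are above 0 without DMSO replicate 1.

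Keratin-associated proteins, the matrix that fills the shaft between keratin filaments, are not in the list of 34 and had the same order of libraries. The 58 genes named Krtap had 27589, 58, 25 and 1474 counts in library order, and 55 of the 56 with any read were highest in DMSO replicate 1. Krtap8-1 led with 8596, 6, 3 and 654 counts, followed by Krtap11-1 with 2723, 0, 1 and 79, Krtap3-3 with 2189, 2, 4 and 70 and Krtap22-2 with 1654, 0, 0 and 105. In NEDD8i replicate 2 the group reached 4.46% of its DMSO replicate 1 level (95% counting interval 4.23 to 4.7), between the shaft and root sheath keratins. None of 21 tested genes was called, and the median log2 fold change was -4.18. Krtap genes are close copies of each other, so their single counts are less certain than the sum.

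Across all genes, the library pattern of the members was rare. A gene was counted as alike when its level, with 1 read added, was at least 8-fold higher in DMSO replicate 1 than in replicate 2 and at least 4-fold higher in NEDD8i replicate 2 than in replicate 1. This held for 101 of 9410 genes with at least 20 counts in DMSO replicate 1 (1.07%). The 101 comprised 23 members, all 7 root sheath keratins and 8 shaft keratins among them, and 78 other genes, of which 32 were Krtap genes. Of the 12 genes with most reads in DMSO replicate 1 among the 62 with a gene symbol that were not members, 9 were Krtap genes and the other 3 were the hair keratins Krt87 (3716, 0, 5 and 77 counts) and Krt83 (1243, 0, 1 and 38 counts) and Psors1c2 (1048, 6, 6 and 54 counts). The rule was modelled on the members' own pattern, so how many members meet it is no finding. It compares single libraries and carries no test.

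Among the other structural genes of the follicle, 0 of 8 tested were called, and Krt79, a keratin of the upper follicle, was higher in DMSO replicate 1 (3642 counts) than elsewhere (933 to 1567). Krt80, at 767 to 1107 counts, was not. Among 26 signals and regulators of the hair matrix, 0 of 21 tested were called (0.782% of all genes), with a median log2 fold change of -0.89. Both NEDD8i libraries lay below both DMSO libraries in 11 of the 21 and above them in 0, against 25.4% and 21.6% of all tested genes. At an unadjusted edgeR p of 0.05, 8 were lower and 0 higher, against 7.86% and 8.62%. The list summed to 3352 and 3000 RPM in DMSO and to 1841 and 2170 after NEDD8i, so DMSO replicate 1 was 1.12-fold above replicate 2 (95% counting interval 1.08 to 1.15). Gata3, a factor of the inner root sheath that epidermis also expresses, had 4212, 4160, 3560 and 3417 counts and so did not follow the members. Nor did Hr, a regulator of the hair cycle, with 393, 780, 614 and 1018. Gata3 alone made up 4212 of 9466 list reads in DMSO replicate 1 and 4160 of 6864 in replicate 2. The sum therefore says little of the other genes. Next by reads, Cux1 was highest in DMSO replicate 1, with 740, 163, 251 and 253 counts, and Vdr had 392, 144, 402 and 317. The hair growth signal Shh, named after its values were seen, had 32, 0, 0 and 0 counts, and Lef1, likewise, 115, 0, 4 and 12. Both were highest in DMSO replicate 1. The sum of their list was also highest there, but only 1.12-fold above DMSO replicate 2.

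Most markers of melanocytes, which pigment the growing hair, were high in DMSO replicate 1 alone. The 12 melanocyte genes summed to 974.8 and 145.6 RPM in DMSO and to 141.7 and 157.4 after NEDD8i. NEDD8i replicate 2 was thus at the level of the low libraries there, 1.11-fold that of NEDD8i replicate 1 (95% counting interval 0.982 to 1.26), where the root sheath keratins were 107-fold higher. All 12 had reads in DMSO replicate 1, and 3, 3 and 2 of them had none in the other libraries in order. Dct, a pigment enzyme, carried most of the sum, with 1817, 224, 333 and 354 counts. Mitf, with 94, 82, 107 and 124, and Kit, with 21, 8, 24 and 9 and named after its values were seen, did not share the pattern. Without Dct and Mitf the list was 25.3-fold higher in DMSO replicate 1 than in replicate 2 (95% counting interval 17.2 to 38.6) and 0.749-fold in NEDD8i replicate 2 against replicate 1 (0.519 to 1.07). The 12 dermal papilla genes had 126, 45, 29 and 47 reads in all, with 2, 7, 4 and 6 of them at 0, and 2 were tested with 0 called. Fibroblast genes summed to 149.8 and 25.4 RPM in DMSO and 86.2 and 183.7 after NEDD8i, and 1 of 6 tested, Dpt, was called higher (7, 3, 56 and 73 counts). Dcn alone, with 345, 9, 135 and 173 counts, made up most of the reads in DMSO replicate 1, while Col1a2, a collagen gene, had 14, 14, 53 and 138. Among adipocyte genes Fabp4 had 493, 1, 43 and 25 counts, while Adipoq and Lep had at most 2. The part of these cell types, and of the ribosomal RNA share, in the members' values was not tested.

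Summed, the bulge and telogen list and the markers of dividing cells did not follow the members. The 10 bulge and telogen genes took 0.322% to 0.434% of reads, with 0 of 10 called, and Krt15, a keratin of bulge and basal cells, had 4591 to 5704 counts. Krt15, Sox9 and Col17a1, each with at least 2026 counts in every library, carried most of this sum. It therefore says little of the other genes and is no measure of resting follicles. Cd34 was lowest in DMSO replicate 1, with 84, 182, 302 and 296 counts. Lgr5, named after its values were seen, was highest there, with 31, 12, 13 and 21. The 14 mitotic genes took 0.107% and 0.11% of reads in DMSO and 0.0401% and 0.0675% after NEDD8i. Of these 1 was called lower, Bub1b, and 13 had a negative log2 fold change. They were at the same level in both DMSO libraries, 0.968-fold (95% counting interval 0.918 to 1.02), where the root sheath keratins were 639-fold higher in DMSO replicate 1.

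**Figure D4:**
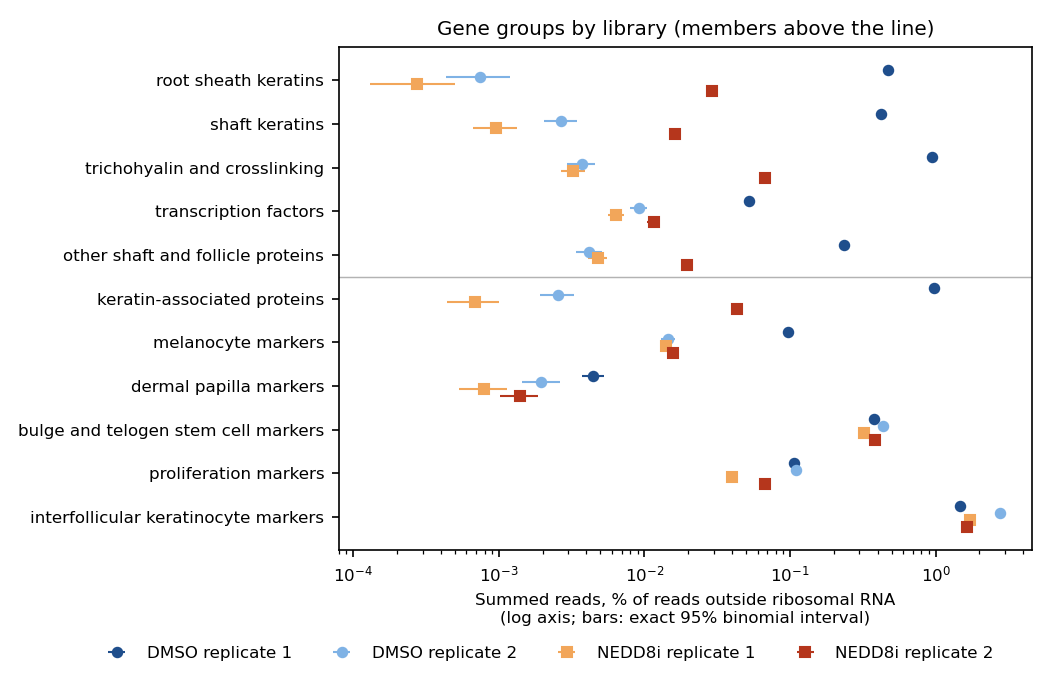
Summed reads of each gene group as a percentage of reads outside ribosomal RNA (log axis) in the 4 libraries, with exact 95% binomial intervals. The structural members and keratin-associated proteins lie highest in DMSO replicate 1, followed by NEDD8i replicate 2, melanocyte genes are high in DMSO replicate 1 only, and bulge genes lie between 0.322% and 0.434% in all 4.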

How the data were processed

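RNA was read with a 3′ tag kit (QuantSeq FWD, per the labels' protocols). The authors deposited raw read counts per gene for 4 libraries in 1 table. The submitters' processing notes list STAR, featureCounts and DESeq2, and both GRCm38 and GRCm39 as builds. Their settings and versions are not known here. Gene starts in the deposited table matched GENCODE M21 (GRCm38) for 0 of 33 members, and coordinates are therefore read as GRCm39.

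Counts as deposited were tested in R 4.3.3 with edgeR 4.0.16: filterByExpr (minimum count 10, minimum total 15), TMM factors, the robust quasi-likelihood F test of NEDD8i against DMSO over 11388 genes, and Benjamini-Hochberg adjustment at 0.05. Single libraries were compared by RPM outside Rn18s-rs5, mt-Rnr1 and mt-Rnr2, with exact 95% intervals (Clopper-Pearson, in scipy 1.17.1). No p is given for summed members, and 2 libraries against 2 could not go below 0.333 in an exact permutation test. The SE given for an edgeR log2 fold change is its absolute value divided by the square root of F. The floor for a count of 0 is 3 reads.

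Every member with a row is reported with its counts in all libraries. From other lists the rule named up to 4 genes with most reads and those called. Shh, Lef1, Lgr5, Kit, Adipoq and Lep fall outside it and were picked with their values in view. The members and lists were chosen with earlier results of these data known. Alternatives were DESeq2 1.42.0, limma-voom (limma 3.58.1), other scaling factors and filters, a fit without the robust option, a replicate block and each library left out. The fit was run on simulated counts whose spread followed the trend over all genes. Most members spread far more between libraries of a group, so that run does not show how the fit performs for them. Same-numbered libraries did not deviate together (correlation -0.13), so the main model held the group alone.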

Additional observations from a re-analysis of the deposited data

How the results depend on the processing

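With RLE factors, library sizes without TMM, the fixed filter, limma-voom, no robust option, ribosomal RNA genes left out, or factors computed without members and Krtap genes, 0 members and 0 Krtap genes were called, and all tested members kept a negative log2 fold change. Without a filter, 3 of 32 members were lower (Krt32, Krt82 and Foxq1), 2 of them shaft keratins, as were 8 of 56 Krtap genes; 1.35% of all genes were then called lower. DESeq2 called 1, a shaft keratin. Library sizes without TMM moved the median of all genes to -0.22 and that of the members to -4.06. Over all genes, DESeq2 called 236 higher and 179 lower, no filter 385 and 318, library sizes without TMM 38 and 9, no robust option 45 and 3, and limma-voom 25 and 2. The replicate block called 0 members, with a median log2 fold change of -2.22, where 179 genes in all were higher and 106 lower, against 76 and 13 without it. The shared numbers are not stated to pair the libraries. With numbers crossed, chosen after seeing the data, 21 of 26 members were called lower, of which 6 root sheath keratins and 8 shaft keratins, and 21 Krtap genes, where 248 genes in all were higher and 235 lower. Leaving out 1 library gave 0 to 30 called members, 0 to 7 root sheath keratins, 0 to 10 shaft keratins and 0 to 47 Krtap genes. The medians ran from -7.94 to 3.66 for members, -10.02 to 5.90 for root sheath keratins, -10.77 to 3.44 for shaft keratins and -9.20 to 3.44 for Krtap genes, each highest without DMSO replicate 1. Without that library 23 members turned positive; log2 fold changes over the fits leaving out 1 library ran from -10.02 to 3.63 for Krt25, -11.81 to 7.91 for Krt27, -8.31 to 4.81 for Krt28, -9.24 to 4.24 for Krt71, -10.19 to 7.0 for Krt72, -12.49 to 7.61 for Krt73, -11.78 to 5.75 for Krt31, -13.46 to 3.69 for Krt33a, -13.22 to 7.89 for Krt33b, -11.71 to 0.29 for Krt34, -8.89 to 5.26 for Krt35, -12.53 to 2.39 for Krt81, -10.77 to 3.20 for Krt86, -7.02 to 3.18 for Tchh, -7.57 to 4.09 for Tchhl1, -7.44 to 8.03 for Padi3, -2.85 to 0.63 for Hoxc13, -4.02 to 0.86 for Msx2, -2.27 to 0.064 for Foxq1, -0.98 to 0.30 for Gsdma, -6.79 to 7.22 for Crym, -6.18 to 5.24 for S100a3, -6.81 to 2.24 for Prr9. Where the group left has no read, such a value depends on the prior count and is no bound. Krt32, Dlx3 and Foxn1 stayed negative. The difference in member share (NEDD8i minus DMSO) was -0.99 percentage points, and 0.06 without DMSO replicate 1. That in root sheath share of keratin reads was 5.88, -0.62 without Krt33a, Krt33b, Krt81 and Krt86, and -15.2 to 27 with 1 library left out, so it has no settled sign. With 2 libraries a group, depth limits counts near 0: a gene with 0 reads may reach 0.821 to 1.31 RPM.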
